A study of Mus musculus with 20 samples.

Results

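The semaphorins and their receptors, the plexins and neuropilins, are a family of guidance genes whose mRNA on ribosomes of hippocampal granule cells was followed in mice between postnatal day 5 (P5) and P28. All symbols in the table of counts that name a semaphorin of classes 3 to 7, a plexin or a neuropilin were taken, whatever their level. This gave 31 genes of 32245 symbols, made up of 20 semaphorins, 9 plexins and 2 neuropilins. Of the 31, 30 had a mean of at least 1 CPM (counts per M counts of a library) over the 20 libraries, as did 13483 symbols in all, and Sema3g, at 0.782 CPM, did not.

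Semaphorins are secreted or membrane-bound ligands that share a sema domain and steer, repel or prune axons, dendrites and synapses. Class 3 semaphorins are secreted and most bind a neuropilin, which has no signalling domain of its own and acts in a complex with a class A plexin, whereas most membrane-bound semaphorins of classes 4 to 7 bind plexins directly. In the mouse hippocampus, class 6 semaphorins with plexins A2 and A4 are known to set the layers in which mossy fibres, the axons of granule cells, end, and Sema3f with Nrp2 and Plxna3 is known to prune the infrapyramidal mossy fibre bundle and to restrain spines on granule cell dendrites.

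The mice carried Rbp4-Cre and the RiboTag allele (genotype Rbp4-Cre:RiboTag), so that Cre-expressing cells make an HA-tagged form of the ribosomal protein RPL22, and RNA was isolated from tagged ribosomes pulled out of whole hippocampus with anti-HA beads. All 6 ages carried both alleles; no untagged control and no unselected hippocampal RNA is analysed here. Whether the libraries of an age stem from different mice is not in the labels, and p-values thus measure only how far these samples spread, which may be technical. The labels also leave unsaid whether a P5 library of batch A and the one of the same number in batch B share a mouse. Such libraries count here as separate samples. With them summed, 27 members were called at P15 and 30 at P28 against P5, and 13 rather than 7 at P7. The summed fit holds no term for batch, so at P7 it cannot tell age, batch and the summing apart. Without that term and with nothing summed, the count at P7 was 13 as well. There were 3 libraries each at P7, P10, P15, P21 and P28 and 5 at P5, with 15.9 to 24.9 M counts each, and 3 counts in a library came to 0.122 to 0.181 CPM. The labels give 3 batch dates, here called A, B and C. The P10 and P15 libraries were in batch A with 3 P5 libraries, the P7 libraries were in batch B with the 2 other P5 libraries, and batch C contained P21 and P28 and no earlier age. A term for batch B against A was fitted, so that P10, P15 and later ages are in effect set against P5 batch A and P7 against P5 batch B, while mean CPM at P5 is over all 5. For P21 and P28 against earlier ages, age and batch cannot be told apart. In RNA from pooled cells, fewer cells of a type and less RNA per cell cannot be told apart either.

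Defining granule cell genes were present at every age: Prox1, which encodes their identity-defining transcription factor, averaged 547 CPM at P5, 556 CPM at P15 and 515 CPM at P28, and the calcium-binding protein gene Calb1 averaged 603, 640 and 602 CPM. With C1ql2, Dsp, Slc30a3 and Neurod1, these 6 granule cell markers summed to 1412 to 1526 CPM over the P5 libraries, 1913 to 2013 CPM at P15 and 2098 to 2165 CPM at P28; C1ql2 averaged 74.1, 332 and 522 CPM, whereas Neurod1 averaged 108, 58.0 and 49.2 CPM. Genes of other cells were also present, and their lists moved both ways. The 5 astrocyte markers summed to 474 to 530 CPM at P5, 1046 to 1280 CPM at P15 and 783 to 967 CPM at P28, and the 6 interneuron markers to 153 to 178, 259 to 310 and 245 to 270 CPM, with Pvalb at 0 in some P5 libraries. The summed level of 5 markers of newborn neurons and progenitors (Dcx, Igfbpl1, Sox11, Top2a and Nes) was 862 to 1105 CPM over the P5 libraries, 122 to 135 CPM at P15 and 67.3 to 70.5 CPM at P28, and none of the 5 was at 0. The 5 markers of Cajal-Retzius cells, an early neuron of the same layers, summed to 116 to 158 CPM at P5, 34.4 to 39.1 CPM at P15 and 16.1 to 26.4 CPM at P28, with Lhx1 at 0 in some P10 and P28 libraries. The part of these lists in the changes of the family was not tested.

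All 31 genes are protein-coding. In GENCODE vM21 (mm10), Nrp2 spans chr1:62703285-62818695, Sema4g chr19:44989101-45003397, Plxna3 chrX:74329066-74344689, Sema7a chr9:57940112-57962865 and Plxnb3 chrX:73757090-73772514, all on the plus strand, and Plxna4 spans chr6:32144268-32588192 and Sema4f chr6:82911885-82939769 on the minus strand. Promoter windows, from 250 bases before to 50 bases after each annotated start (RefSeq, GRCm38.p6), were matched for 26 of the 31 genes, which have 37 windows. The 5 genes without a match were Plxna1, Plxna4, Sema3b, Sema3f and Sema6a. Windows are shown for 3 members that were lower at later ages, Nrp2 (chr1:62703067-62703366, plus strand), Sema4g (chr19:44989094-44989393, plus strand) and Plxna3 (chrX:74328816-74329115, plus strand), and for 2 that were higher at P28, Sema7a (chr9:57939862-57940161, plus strand) and Sema4f (chr6:82939720-82940019, minus strand). Capitals mark the GC box, GGGCGG or its reverse complement CCGCCC, where overlapping copies run together.
Nrp2: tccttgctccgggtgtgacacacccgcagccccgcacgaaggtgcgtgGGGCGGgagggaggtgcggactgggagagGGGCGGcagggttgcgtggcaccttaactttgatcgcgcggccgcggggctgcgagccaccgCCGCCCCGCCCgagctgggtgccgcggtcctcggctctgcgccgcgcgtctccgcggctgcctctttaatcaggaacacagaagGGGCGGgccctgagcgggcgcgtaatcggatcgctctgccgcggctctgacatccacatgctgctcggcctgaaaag
Sema4g: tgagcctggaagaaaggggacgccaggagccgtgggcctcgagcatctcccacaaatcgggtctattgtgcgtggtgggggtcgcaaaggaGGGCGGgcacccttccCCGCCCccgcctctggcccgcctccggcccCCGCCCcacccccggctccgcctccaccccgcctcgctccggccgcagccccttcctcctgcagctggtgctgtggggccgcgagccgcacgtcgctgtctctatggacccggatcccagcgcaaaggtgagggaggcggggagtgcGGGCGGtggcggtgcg
Plxna3: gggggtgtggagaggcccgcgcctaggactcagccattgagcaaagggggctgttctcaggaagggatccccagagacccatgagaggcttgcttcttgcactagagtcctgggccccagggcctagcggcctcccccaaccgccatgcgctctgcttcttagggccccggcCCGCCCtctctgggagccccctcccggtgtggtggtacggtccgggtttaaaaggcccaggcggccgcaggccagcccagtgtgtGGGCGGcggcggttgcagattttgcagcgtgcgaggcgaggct
Sema7a: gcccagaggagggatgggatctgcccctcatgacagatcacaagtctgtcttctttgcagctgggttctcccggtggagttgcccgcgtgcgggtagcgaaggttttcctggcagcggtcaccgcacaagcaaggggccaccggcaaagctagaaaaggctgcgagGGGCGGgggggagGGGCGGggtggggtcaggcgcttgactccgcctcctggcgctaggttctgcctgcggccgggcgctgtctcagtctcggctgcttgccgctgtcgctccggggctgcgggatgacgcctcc
Sema4f: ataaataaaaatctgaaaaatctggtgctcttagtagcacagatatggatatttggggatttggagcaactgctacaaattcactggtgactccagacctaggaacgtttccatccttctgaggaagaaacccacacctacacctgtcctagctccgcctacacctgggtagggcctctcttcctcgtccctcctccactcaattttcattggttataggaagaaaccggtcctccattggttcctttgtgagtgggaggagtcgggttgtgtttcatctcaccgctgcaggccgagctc
The GC box was in 27 of the 37 windows of the family (73%), in 21 of the 26 genes, against 35.7% of 32851 promoters and 60% of the 15160 promoters of genes with enough counts to be tested. It was in the windows of Nrp2, Sema4g, Plxna3 and Sema7a and not in that of Sema4f, so members that were lower and members that were higher at later ages both held it. Median GC content was 63.7% in the windows of the family, 60.3% in those of tested genes and 52.7% in all. The other motifs searched on both strands were the E-boxes CAGATG (5.41% of windows of the family, 12.1% of those of tested genes) and CAGCTG (16.2% and 15.9%), the AP-1 element TGANTCA (8.11% and 5.07%), the cAMP element TGACGTCA (0 of 37 windows, 2.87%) and the TATA box TATAAA (0 of 37 windows, 7.43%). None of these motifs contains another, and a match is a description of the letters and not a site.

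All 31 genes passed edgeR's default filter on low counts and were tested among 15373 genes. Every one differed between ages at an adjusted p under 0.05, beside 79.7% of all genes tested. At P15 against P5, 24 members were lower, 4 were higher and 3 did not pass, so that 28 of 31 were called against 63.4% of all genes; 31.8% of all genes were called lower and 31.6% higher. Their median log2 change was -0.88, beside -0.02 for all genes tested. At P28 against P5, 25 members were lower, 5 were higher and 1 did not pass, beside 36.4% of all genes lower and 35.3% higher and 71.6% called, with a median of -1.27 beside -0.01. Of those lower at P28, 20 were at least 2-fold lower, beside 18.7% of all genes, and at P15 it was 15, beside 12.8%. Both comparisons share the P5 libraries. Every P15 library lay below every P5 library for 23 members, beside 29% of all genes, and above for 4, beside 29%; for P28 these were 24 members, beside 33.8%, and 5, beside 33.2%.

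**Figure D1:**
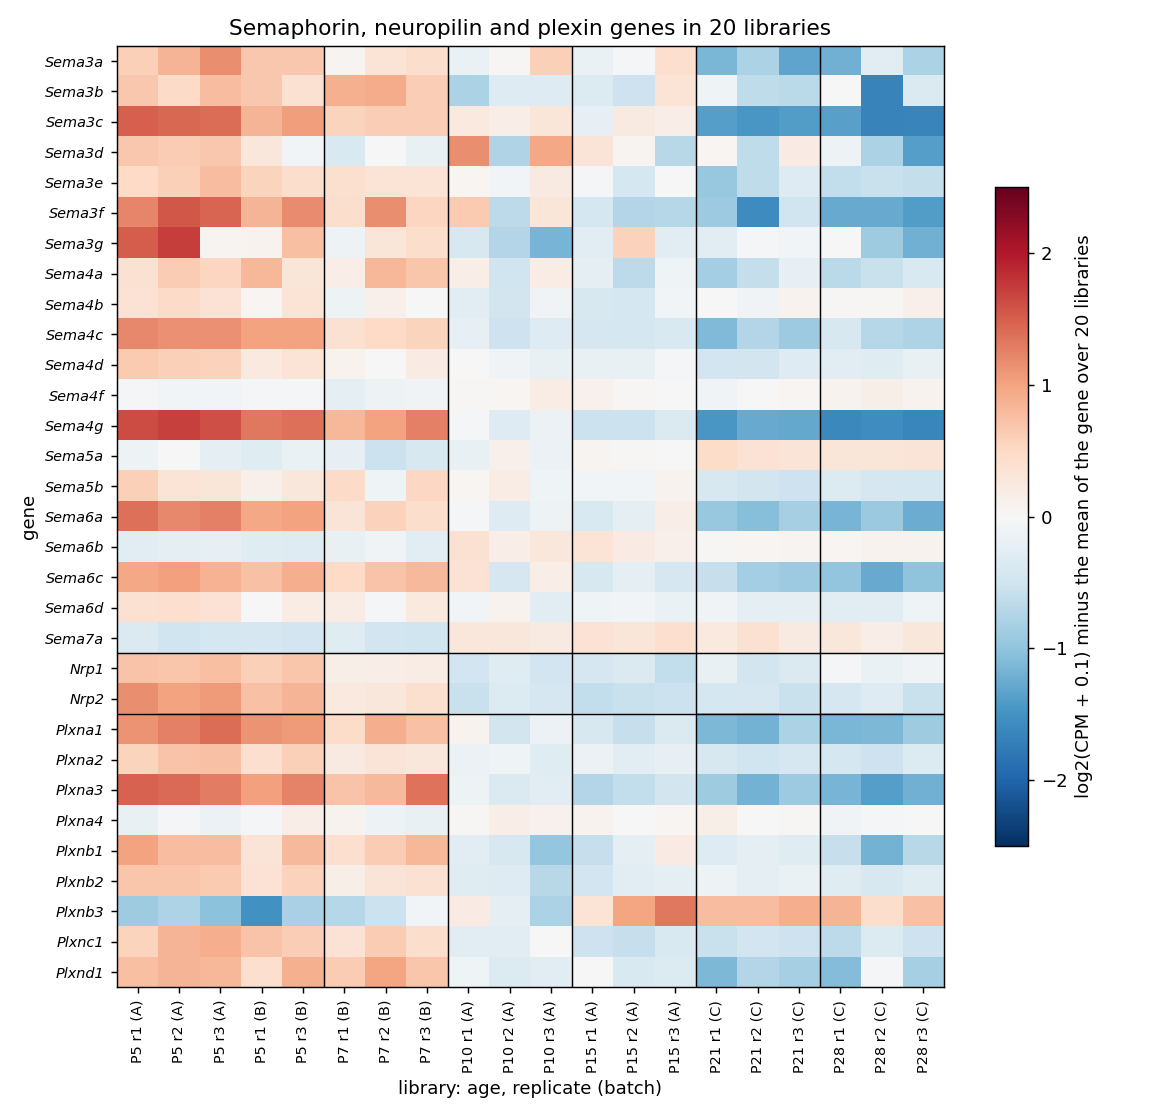
Each row is a gene, with semaphorins at the top, then neuropilins and plexins, and each column is a library in order of age, with its batch in brackets. Colour gives log2(CPM + 0.1) minus the mean of the gene over the 20 libraries. Most rows are high at P5 and low from P10 on, while Sema7a, Sema6b and Plxnb3 run the other way. Sema5a is highest at P21 and P28, which are in batch C.

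The age with the highest mean was P5 for 21 of the 31 genes, beside 29.5% of all genes tested, P7 and P10 for 3 each (14.7% and 11.8%), P15 for 2 (8.14%) and P21 and P28 for 1 each (13.9% and 21.9%). The mean fell at each of the 5 steps in age for 7 members, Sema3c, Sema3f, Sema4g, Sema6c, Sema6d, Plxna1 and Plxna3, beside 5.78% of all genes. No member rose at each step, beside 6.5% of all genes. These means are not adjusted for batch, and that of P5 is over both of its batches. For Sema6d the fitted change at P7 against P5 was 0.05 (edgeR, adjusted p = 0.81), although its mean was lower at P7. No member was called at P28 against P21, so not every one of these falls passed the threshold.

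**Figure D2:**
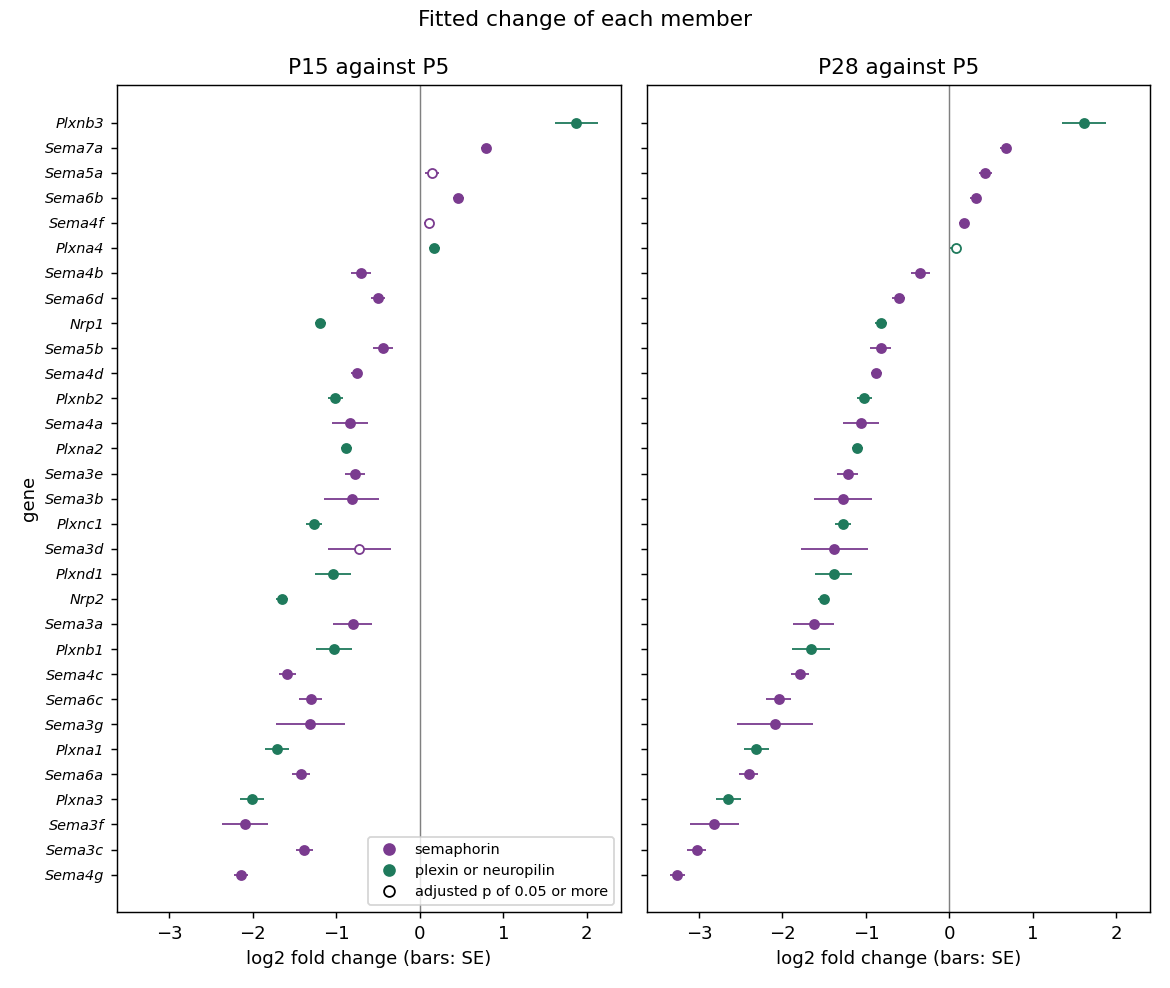
Points give the fitted log2 fold change of each gene at P15 (left panel) and P28 (right panel) against P5, with bars of 1 SE, for semaphorins in purple and for plexins and neuropilins in green. Open points mark an adjusted p of 0.05 or more. Sema4g has the lowest value at P28, at -3.26, and Plxnb3 the highest, at 1.61.

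All 7 class 3 semaphorins, which are secreted, were called lower at P28, beside 36.4% of all genes, and 6 of the 7 were at P15, beside 31.8%. Sema3c, which attracts or repels axons depending on its receptors, had 10.0, 13.5 and 13.0 CPM at P15 and 4.44, 3.56 and 3.65 CPM at P28, against 32.7, 31.7 and 30.9 CPM in P5 batch A and 20.9 and 24.0 CPM in P5 batch B. No library of P15 or P28 reached the lowest P5 library. Its fitted log2 change was -1.38 (SE 0.10, adjusted p = 2.1e-11) at P15 and -3.03 (SE 0.12, adjusted p = 5.8e-17) at P28. Within P5, Sema3c was lower in batch B than in batch A (log2 change -0.50), as were Nrp2 (-0.28), Sema4d (-0.32), Sema4g (-0.31) and Sema6d (-0.29), beside 10.1% of all genes called between these batches and 3.42% called lower. The summed level of 4 fibroblast and meningeal markers (Col1a1, Col3a1, Dcn and Lum), none of them at 0, was 204 and 157 CPM in P5 batch B, against 561, 459 and 550 CPM in P5 batch A, and it was 53.4 to 113 CPM at P15 and 61.0 to 96.0 CPM at P28. The newborn neuron and progenitor sum was also lower in P5 batch B, at 862 and 899 CPM, against 1087, 1105 and 1088 CPM in P5 batch A. The Cajal-Retzius sum was lower there too, while the astrocyte sum was higher, at 528 and 530 CPM against 493, 489 and 474 CPM. The part of these lists in the change of Sema3c was not tested.

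Sema3f, the ligand of Nrp2, had 2.09, 1.70 and 1.74 CPM at P15 and 1.15, 1.15 and 1.04 CPM at P28, against 6.90, 8.73, 8.09, 5.30 and 6.71 CPM at P5. These groups did not overlap, and the log2 change was -2.10 (SE 0.27, adjusted p = 4.1e-07) at P15 and -2.82 (SE 0.30, adjusted p = 8.4e-09) at P28. Sema3e, a ligand that binds plexin D1 without a neuropilin, averaged 18.8 ± 2.91 CPM at P15 and 13.9 ± 0.298 CPM at P28, against 31.2 ± 2.72 CPM at P5 (SD, n = 3, 3 and 5), with log2 changes of -0.78 and -1.22. Sema3a, the classical growth cone-collapsing ligand of Nrp1, averaged 3.66 CPM at P15 and 2.06 CPM at P28, against 6.04 CPM at P5, and was called lower at both ages (log2 changes -0.80 and -1.63).

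The other class 3 genes were low as well. At P28 Sema3f, at a mean of 1.12 CPM, was also near the floor of 1 CPM. Sema3b averaged 1.12 CPM at P15 and 0.816 CPM at P28, against 1.91 CPM at P5, and its call at P15 (log2 change -0.82, adjusted p = 0.034) was lost when P15 replicate 1 or 2, or P5 replicate 1 or 3 of batch A, was left out (adjusted p = 0.094, 0.128, 0.067 and 0.089). Sema3g, a semaphorin of blood vessels, ran between 0.524 and 1.03 CPM at P15 and between 0.232 and 0.658 CPM at P28, against 0.699 to 2.43 CPM at P5. It overlapped between P15 and P5, and without P5 replicate 2 of batch A its adjusted p at P15 was 0.069, against 0.0084 with it. Sema3d did not pass at P15 (log2 change -0.72, adjusted p = 0.10) and was called lower at P28 (-1.38, adjusted p = 0.0048). At P10 its libraries stood apart, at 6.15, 1.56 and 5.36 CPM, and the summed fibroblast and meningeal markers in the same 3 libraries were 178, 84.6 and 192 CPM. The CA pyramidal, Cajal-Retzius and newborn neuron sums were also lowest in P10 replicate 2, and the granule cell sum was highest there. The orders of libraries by Sema3d and by the fibroblast and meningeal sum were the same at P5 and differed at every later age. The part of any list was not tested.

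Class 4 semaphorins are membrane-bound ligands, several of which bind plexins of class B. Sema4g was 29.9, 29.8 and 33.7 CPM at P15 and 14.2, 14.8 and 13.9 CPM at P28, against 136, 142, 133, 108 and 113 CPM at P5. Every P15 and P28 library lay far below the P5 range. The log2 change was -2.14 (SE 0.09, adjusted p = 9.6e-16) at P15 and -3.26 (SE 0.10, adjusted p = 9.7e-19) at P28. Sema4c, a ligand of plexin B2, averaged 11.2 ± 0.251 CPM at P15 and 9.70 ± 1.44 CPM at P28, against 32.3 ± 1.94 CPM at P5 (SD, n = 3, 3 and 5), and was called lower at both (-1.59 and -1.79). Of the exon bases of Sema4c, 7.3% lie under an antisense-strand transcript, D430040D24Rik, which averaged 0.552 CPM.

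Sema4d, the ligand of plexin B1, averaged 60.1 CPM at P15 and 55.3 CPM at P28, against 93.5 CPM at P5, with log2 changes of -0.75 and -0.88. Sema4a was lower by a similar size (-0.84 and -1.06), as was Sema4b at P15 (-0.70), whose change at P28 was smaller (-0.35). The P28 libraries of Sema4b, at 13.2 to 14.1 CPM, overlapped with those of P5, at 13.4 to 18.2 CPM. Sema4f, a ligand found at glutamatergic synapses, stood apart from the rest of its class. It had 80.5, 76.4 and 74.6 CPM at P15 and 79.6, 82.9 and 79.0 CPM at P28, against 72.1, 70.7, 71.3, 72.3 and 71.7 CPM at P5. Its libraries at both later ages were above every P5 library, by little. The log2 change was 0.11 at P15 (adjusted p = 0.085), which did not pass, and 0.17 at P28 (SE 0.06, adjusted p = 0.0089). That call was lost without P28 replicate 2 (adjusted p = 0.070) and when libraries were scaled by total counts alone (0.05, adjusted p = 0.47).

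Class 5 semaphorins are transmembrane ligands with thrombospondin repeats. Sema5a, which in mice is known to restrain excitatory synapses of granule cells through plexin A2, had 319, 307 and 300 CPM at P15 and 376, 374 and 377 CPM at P28, against 278, 301, 258, 246 and 271 CPM at P5. The P15 and P5 libraries overlapped by 1 library, and every P28 library was above every P5 library. The log2 change was 0.15 at P15 (SE 0.08, adjusted p = 0.12), which did not pass, and 0.43 at P28 (SE 0.08, adjusted p = 4.9e-05). Sema5b went the other way, with a mean of 28.8 CPM at P15 and 22.1 CPM at P28, against 37.0 CPM at P5 (log2 changes -0.44 and -0.82).

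Class 6 semaphorins are transmembrane ligands of class A plexins and can also act as receptors. Sema6a, which in mouse hippocampus confines mossy fibres to their layer through plexins A2 and A4, had 18.5, 20.2 and 26.7 CPM at P15 and 10.6, 12.5 and 10.0 CPM at P28, against 62.4, 55.5, 57.5, 46.8 and 48.2 CPM at P5. The groups did not overlap, and the log2 change was -1.42 (SE 0.11, adjusted p = 5.3e-11) at P15 and -2.40 (SE 0.12, adjusted p = 7.9e-15) at P28. Sema6b, also a ligand of plexin A4 on mossy fibres, had 166, 149 and 141 CPM at P15 and 135, 138 and 139 CPM at P28, against 108, 109, 113, 106 and 104 CPM at P5. All P15 and P28 libraries were above all P5 libraries, with log2 changes of 0.46 (SE 0.06, adjusted p = 7.8e-07) and 0.31 (SE 0.06, adjusted p = 0.00011). Sema6c averaged 18.7 CPM at P15 and 11.2 CPM at P28, against 44.7 CPM at P5 (-1.31 and -2.05), and Sema6d, a ligand of plexin A1, averaged 66.8 CPM and 61.8 CPM, against 87.3 CPM at P5 (-0.50 and -0.61). Within class 6, therefore, 3 members were called lower and Sema6b higher at both ages.

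Sema7a, the GPI-anchored member that binds plexin C1 and beta-1 integrins, was the semaphorin with the largest rise. Its libraries had 169, 164 and 177 CPM at P15 and 161, 148 and 160 CPM at P28, against 104, 93.9, 97.5, 98.8 and 95.6 CPM at P5. The log2 change was 0.79 (SE 0.06, adjusted p = 4.6e-11) at P15 and 0.67 (SE 0.06, adjusted p = 5.9e-10) at P28. The rise lay between P7 (108, 94.5 and 93.5 CPM) and P10 (162, 162 and 154 CPM), at a log2 change of 0.68 at P10 against P7, which are in different batches.

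**Figure D3:**
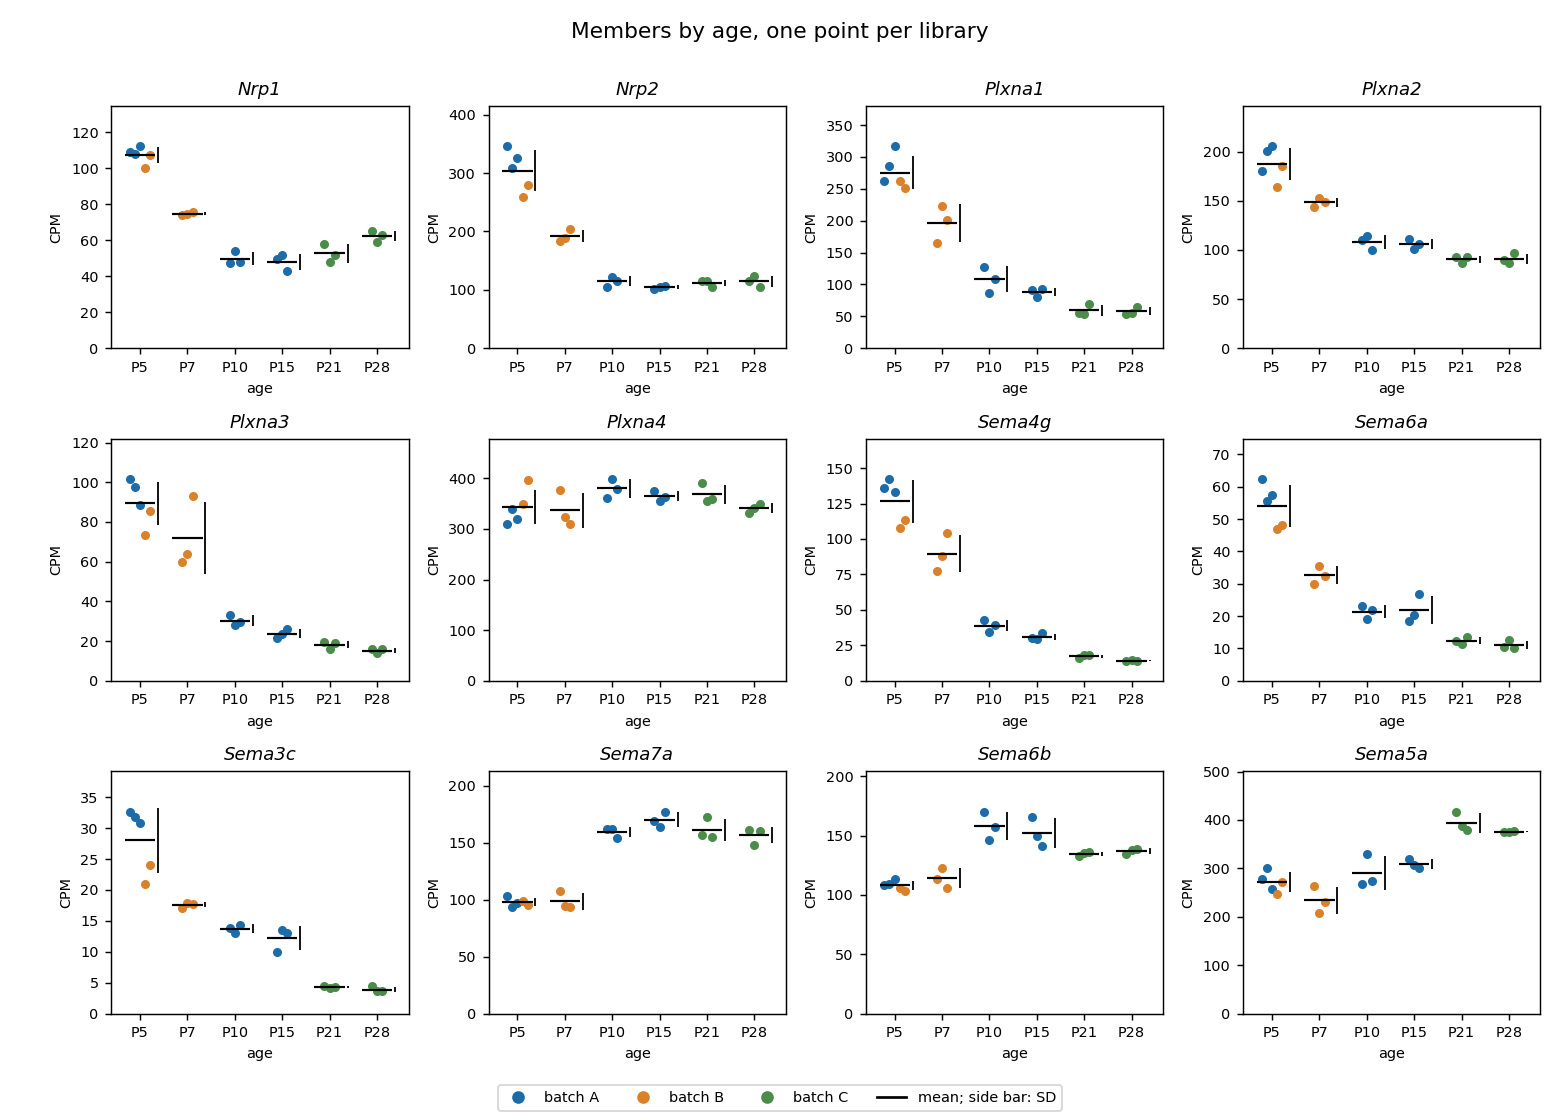
Each panel plots 1 gene in CPM against age, with a point for each library coloured by batch, a line at the mean and a side bar of 1 SD. Nrp2, Plxna3, Sema4g and Sema6a drop between P5 and P10, Plxna4 stays between 309 and 398 CPM, and Sema7a and Sema6b are higher from P10 on.

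Both neuropilins were lower. Nrp2, the co-receptor for Sema3f, had 101, 105 and 107 CPM at P15 and 116, 124 and 105 CPM at P28, against 346, 309, 326, 259 and 280 CPM at P5. Every P5 library lay above every P15 and P28 library. The log2 change was -1.65 (SE 0.07, adjusted p = 6.1e-16) at P15 and -1.51 (SE 0.07, adjusted p = 8.9e-16) at P28. Nrp1, the co-receptor for Sema3a and also for VEGF, had 49.4, 51.9 and 43.1 CPM at P15 and 65.0, 59.2 and 62.8 CPM at P28, against 109, 108, 112, 100 and 108 CPM at P5, with log2 changes of -1.19 (SE 0.07, adjusted p = 3.9e-13) and -0.82 (SE 0.07, adjusted p = 2e-10). The endothelial and mural list (Cldn5, Cdh5, Pecam1, Flt1, Pdgfrb and Rgs5, 6 of 6 genes in the table, none at 0) summed to 30.1 to 43.5 CPM at P15 and 16.2 to 20.6 CPM at P28, against 63.3 to 115 CPM at P5, and its part in the change of Nrp1 was not tested. Both neuropilins were already lower at P7 against P5 (log2 change -0.48 for each).

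Of the class A plexins, the signalling partners of neuropilins, 3 were lower at both ages and Plxna4 was at neither. Plxna1 had 91.1, 80.1 and 93.0 CPM at P15 and 53.9, 55.1 and 65.0 CPM at P28, against 262, 285, 317, 262 and 251 CPM at P5, with log2 changes of -1.71 (SE 0.15, adjusted p = 6e-08) and -2.31 (SE 0.15, adjusted p = 1.5e-09). Plxna3 had 21.7, 23.5 and 26.2 CPM at P15 and 16.1, 13.9 and 15.8 CPM at P28, against 102, 97.6, 88.5, 73.7 and 85.6 CPM at P5, with log2 changes of -2.01 (SE 0.14, adjusted p = 2.3e-09) and -2.65 (SE 0.15, adjusted p = 7e-11). For both genes no P15 or P28 library reached the P5 range. Plxna2 averaged 106 ± 5.07 CPM at P15 and 91.1 ± 5.28 CPM at P28, against 187 ± 16.4 CPM at P5 (SD, n = 3, 3 and 5; log2 changes -0.88 and -1.10).

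Plxna4, a receptor for class 6 semaphorins and, with Nrp1, for Sema3a, had 375, 356 and 363 CPM at P15 and 331, 342 and 350 CPM at P28, against 310, 340, 321, 348 and 397 CPM at P5. Over both batches the P5 libraries spanned those of both later ages, whereas every P15 library lay above those of P5 batch A (310, 340 and 321 CPM). Its log2 change was 0.17 at P15 (SE 0.07, adjusted p = 0.027) and 0.08 at P28 (SE 0.07, adjusted p = 0.31). The call at P15 was lost when P5 replicate 1 or 3 of batch A or P15 replicate 1 or 3 was left out (adjusted p = 0.117, 0.068, 0.129 and 0.052), with total-count scaling (0.05, adjusted p = 0.46) and without the batch term (0.09, adjusted p = 0.29). Levels of genes can be set side by side only per length, in CPM per kb of exon. On that scale Plxna4 made up 31.6 ± 3.40% of the summed level of the 4 class A plexins at P5, 57.8 ± 1.11% at P15 and 63.9 ± 1.35% at P28 (SD, n = 5, 3 and 3), and Plxna1 made up 39.5%, 21.7% and 16.9%.

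The remaining plexins were lower, with the exception of Plxnb3. Plxnb1, the receptor of Sema4d, averaged 36.3 CPM at P15 and 23.5 CPM at P28, against 69.3 CPM at P5 (log2 changes -1.03 and -1.66), and Plxnb2 averaged 45.7 and 45.5 CPM, against 87.2 CPM at P5 (-1.01 and -1.02). Plxnc1, the plexin that binds Sema7a, averaged 35.4 CPM at P15 and 35.3 CPM at P28, against 83.0 CPM at P5 (-1.27 and -1.28). It was thus lower at the ages at which Sema7a was higher. Plxnd1, the receptor of Sema3e and a gene of endothelial cells as well as neurons, averaged 32.2 CPM at P15 and 25.2 CPM at P28, against 63.7 CPM at P5 (-1.04 and -1.39). P28 replicate 2 held 36.7 CPM of Plxnd1, against 17.8 and 21.2 CPM in the other P28 libraries, while the summed endothelial and mural markers in these 3 libraries were 16.2, 18.4 and 20.6 CPM. The 5 Cajal-Retzius markers summed to 26.4 CPM in P28 replicate 2, against 16.4 and 16.1 CPM in the others. In P21 replicate 3 they summed to 24.7 CPM, with Plxnd1 at 21.3 CPM. The fibroblast and meningeal sum was also highest in P28 replicate 2 (96.0 CPM, against 85.5 and 61.0 CPM). So was the sum of 5 CA pyramidal cell markers (131 CPM, against 114 and 128 CPM). The other cell type lists were not highest there, and the part of any list was not tested.

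Plxnb3, a plexin known from oligodendrocytes, was the only receptor called higher at both ages. It had 5.29, 8.30 and 10.4 CPM at P15 and 7.57, 5.61 and 6.90 CPM at P28, against 2.19, 2.37, 1.98, 1.38 and 2.32 CPM at P5, and no library of these later ages overlapped with P5. The log2 change was 1.87 (SE 0.26, adjusted p = 1.2e-06) at P15 and 1.61 (SE 0.26, adjusted p = 8.3e-06) at P28. The 5 oligodendrocyte markers (Mbp, Mog, Mobp, Mag and Mal, 5 of 5 in the table) summed to 806, 1020 and 1416 CPM in P15 replicates 1, 2 and 3. They summed to 581 to 707 CPM at P28, against 75.8 to 86.9 CPM at P5. Plxnb3 took the same order of replicates at P15. So did the oligodendrocyte precursor, microglial, interneuron, Cajal-Retzius and newborn neuron sums, so this order was not particular to oligodendrocyte markers. The granule cell, CA pyramidal, astrocyte, endothelial and fibroblast sums took other orders. At P10 the oligodendrocyte markers summed to 495, 595 and 338 CPM and Plxnb3 had 4.76, 3.49 and 2.35 CPM. There, and at P7, P21 and P28, the orders differed. At P5 the mean of Mog was 0.0212 CPM and that of Mobp 0.190 CPM, with some libraries at 0. The part of any of these lists in the change of Plxnb3 was not tested.

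**Figure D4:**
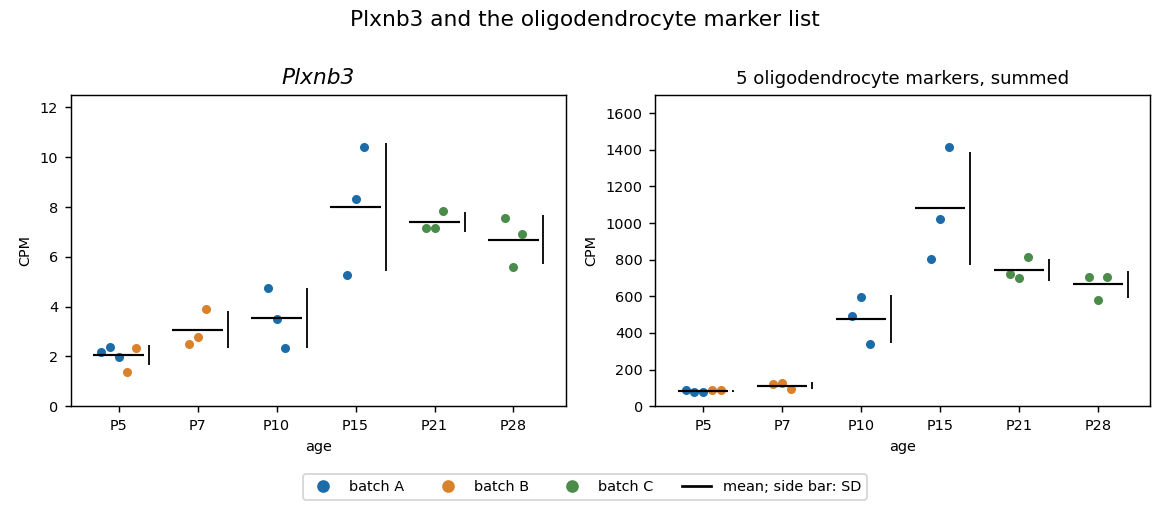
The left panel plots Plxnb3 and the right panel the summed level of 5 oligodendrocyte markers, both in CPM against age, with a point for each library coloured by batch, a line at the mean and a side bar of 1 SD. Both are lowest at P5, and in each panel P15 replicate 3 is the highest library, at 10.4 and 1416 CPM.

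Summed per kb of exon, the receptors were lower at every later age, while the semaphorin sum moved less. The 9 plexins summed to 114 ± 6.47 CPM per kb at P5, and then, in CPM per kb, P7 had 96.7 ± 5.17, P10 had 67.7 ± 2.43, P15 had 64.4 ± 2.56, P21 had 58.4 ± 1.56 and P28 had 54.9 ± 1.73 (SD, n = 5 at P5 and 3 at each other age). The 2 neuropilins summed to 36.6 ± 3.33 CPM per kb at P5, and P7 had 23.9 ± 0.983, P10 had 14.7 ± 1.04, P15 had 13.7 ± 0.424, P21 had 14.8 ± 0.744 and P28 had 16.1 ± 0.697. The 20 semaphorins summed to 162 ± 9.07 CPM per kb at P5, and P7 had 144 ± 1.33, P10 had 161 ± 4.41, P15 had 159 ± 3.55, P21 had 148 ± 2.25 and P28 had 147 ± 2.49. The receptor sums at every age from P7 on lay below all P5 libraries. The semaphorin sums at P10 and P15 lay within the P5 range of 151 to 171 CPM per kb, whereas those at P7, P21 and P28 lay below it. In P5 batch A, which shares the batch of P10 and P15, the semaphorin sums were 171, 169 and 166 CPM per kb. They were 166, 158 and 160 CPM per kb at P10 and 163, 156 and 160 CPM per kb at P15. Every P15 library thus lay below P5 batch A. Such sums carry no test here.

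Inside the semaphorin total the classes moved apart. Class 3 summed to 10.2 CPM per kb at P5, 5.04 at P15 and 2.85 at P28, and class 4 to 53.2, 32 and 30.0 CPM per kb. Class 5 summed to 19.7, 20.6 and 23.2 CPM per kb, class 6 to 49.2, 50.3 and 43.6, and Sema7a alone to 29.7, 51.6 and 47.5. Sema6b held 55.4% of the class 6 sum at P5, 76.1% at P15 and 79.3% at P28. In class 4, Sema4g held 27.4%, 11.2% and 5.51% of the sum at these ages, and Sema4f 25.5%, 45.7% and 50.7%.

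**Figure D5:**
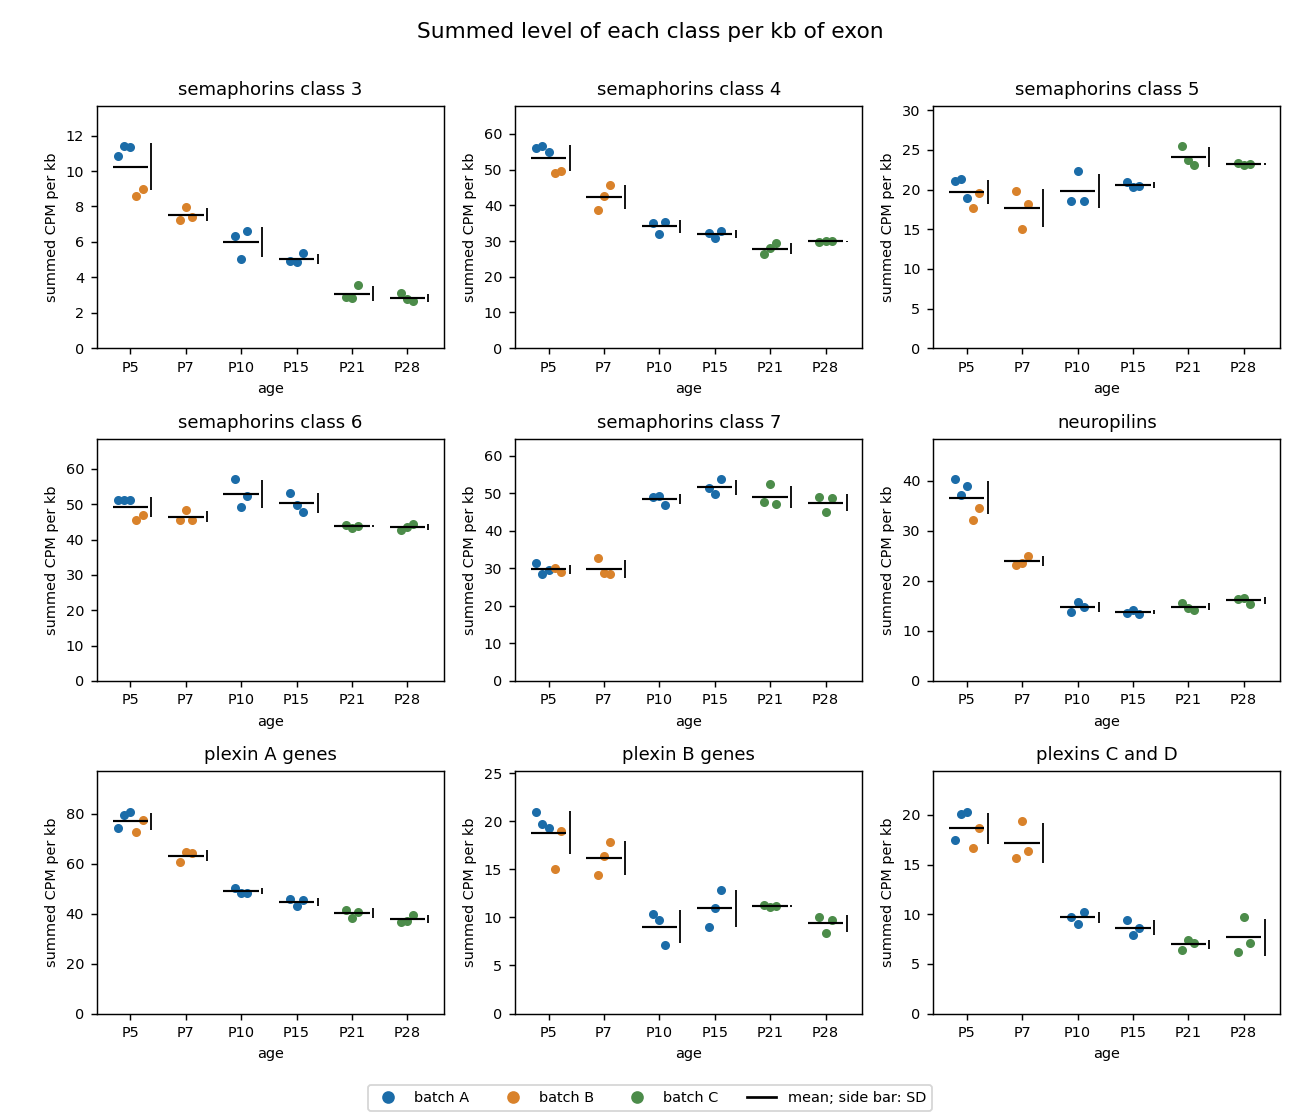
Each panel plots the summed level of a class in CPM per kb of exon against age, with a point for each library coloured by batch, a line at the mean and a side bar of 1 SD. Class 3 is lower at each later age, down to 2.85 CPM per kb at P28, the neuropilins are lowest at P15, at 13.7 CPM per kb, class 6 runs from 42.8 to 57.1 CPM per kb over all libraries, and class 7, which is Sema7a, steps up between P7 and P10.

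The order of the levels changed accordingly. At P5 the 5 highest members were Plxna1 at 30.4 ± 2.88 CPM per kb, Sema7a at 29.7 ± 1.12, Sema6b at 27.2 ± 0.927, Nrp2 at 25.7 ± 2.95 and Plxna4 at 24.3 ± 2.40 (SD, n = 5). Neighbours in this order differed by less than the larger of their SDs, apart from Sema7a and Sema6b. At P15 they were Sema7a at 51.6 ± 2.03, Sema6b at 38.3 ± 3.18, Plxna4 at 25.9 ± 0.690, Sema5a at 16.5 ± 0.516 and Sema4f at 14.6 ± 0.576 CPM per kb (SD, n = 3), and here each differed from the next by more than either SD. The same 5 genes stood in the same order at P28. Plxna1 was in place 6 at P15 and 8 at P28, and Sema4g, which was in place 6 at P5, was in place 17 at P15 and 21 at P28. Sema3g was the lowest at all 3 ages.

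Most of the change fell between P5 and P10. At P7 against P5, 7 of 31 members were called, beside 11% of all genes, and all 7 were lower, beside 4.89%: Nrp1 (-0.48), Nrp2 (-0.48), Plxna2 (-0.24), Sema3c (-0.35), Sema4c (-0.53), Sema4g (-0.30) and Sema6a (-0.54). This count was 4 without P5 replicate 3 of batch B, 4 within batch B alone, and 13 without the batch term. At P10 against P7, 21 members were lower and 4 higher (Plxna4, Sema4f, Sema6b and Sema7a), beside 42.8% of all genes called, 20.3% lower and 22.5% higher. At P15 against P10 only Plxnb3 (1.18, adjusted p = 0.0084) and Sema4g (-0.32, adjusted p = 0.041) were called, beside 4.35% of all genes, with 1.83% higher and 2.51% lower. That count was 0 without P10 replicate 3 or without P15 replicate 3 and 6 without P10 replicate 2. At P10 against P5, 24 members were lower and 5 higher, beside 61.4% of all genes called, 30.6% lower and 30.8% higher.

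Several members were lower again at P21 against P15, ages that are in different batches. Of the 31 members, 13 were lower and 1 was higher, beside 28.8% of all genes called, 14.8% lower and 14% higher, with a median log2 change of -0.21. Sema3c averaged 4.32 ± 0.130 CPM at P21, against 12.2 ± 1.91 CPM at P15 (SD, n = 3 each). On the log2 scale Sema3a fell by 1.21, Sema4g by 0.85, Sema6a by 0.81, Plxnd1 by 0.66 and Plxna1 by 0.57. Sema6b, which was higher at P15 than at P5, was among those lower at P21 (-0.18, adjusted p = 0.039), and Sema5a was higher (0.35, adjusted p = 0.0018). At P28 against P21, which share a batch, edgeR called 0 members, beside 0.254% of all genes, with 6 at an unadjusted p under 0.05, and DESeq2 and limma-voom also called 0.

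Partners and effectors of the pathway were read from 2 lists. Of 13 tested genes for receptor partners, proteins that join plexin or neuropilin complexes or bind semaphorins, 10 were lower and 2 higher at P15 against P5, and likewise at P28, with medians of -1.23 and -1.38, beside -0.02 and -0.01 for all genes tested. Of all genes, 31.8% were lower and 31.6% higher at P15, and 36.4% and 35.3% at P28. L1cam, an adhesion molecule that joins Nrp1 in the receptor for Sema3a, averaged 104 ± 5.07 CPM at P15 and 65.5 ± 4.08 CPM at P28, against 447 ± 27.9 CPM at P5 (SD, n = 3, 3 and 5; log2 changes -2.14 and -2.81). Both genes that were higher at the 2 ages were Nrcam (0.26 and 0.39), an adhesion molecule of the L1 family, and Trem2 (1.43 and 1.40), a gene of microglia. The 5 microglial markers, 5 of 5 in the table and none at 0, summed to 24.4 to 37.7 CPM at P15 and 13.9 to 22.8 CPM at P28, against 16.2 to 20.7 CPM at P5, and their part was not tested.

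Of 51 effectors, the cytoplasmic proteins through which plexins act on actin, microtubules and small GTPases, 22 were lower and 17 higher at P15 and 26 lower and 19 higher at P28, with medians of -0.02 and -0.15. Of the effectors, 43.1% were lower and 33.3% higher at P15, beside 31.8% and 31.6% of all genes. At P28, 51.0% were lower and 37.3% higher, beside 36.4% and 35.3% of all genes. The shares called higher are near those of all genes. The collapsin response mediator gene Dpysl3, whose protein family carries Sema3a signals to microtubules, averaged 152 ± 20.4 CPM at P15 and 47.5 ± 5.24 CPM at P28, against 2301 ± 133 CPM at P5 (log2 changes -3.90 and -5.58), and its relative Dpysl5 fell by 2.82 and 4.34 on the log2 scale. Farp1, a guanine nucleotide exchange factor that binds class A plexins, fell by 2.05 and 2.82. Ptk2b, a focal adhesion kinase, averaged 1169 ± 21 CPM at P15 and 1840 ± 55.6 CPM at P28, against 298 ± 81.0 CPM at P5 (2.29 and 2.94). Sh3bp1, a GTPase-activating protein for Rac, was higher by 1.68 and 2.03 and the Rac exchange factor Tiam2 by 1.25 and 1.43, while Mical2, of a family of actin-oxidising enzymes, was higher by 1.18 at P15 and the kinase Pak1 by 1.24 at P28.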

How the data were processed

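Ribosome-bound RNA of 20 libraries over 6 ages was analysed. The deposited table holds the authors' raw counts per gene symbol, with no normalization. Libraries were made with a stranded, poly-A-selecting kit, per the labels' protocols. STAR 2.7.5b, SAMtools 1.10, featureCounts and build mm10 appear, per the submitters' processing notes. How strand and multi-mapping reads were handled, and with which annotation, is not given in the sources used. Antisense partners therefore cannot be told apart; the largest such overlap covers 10.7% of the exon bases of Plxna1, under Gm26811.

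Ages and batches came from the labels. Counts were tested with edgeR 4.0.16 (R 4.3.3): TMM factors, its default filter by age (15373 genes), robust quasi-likelihood fits on a mean per age plus batch B against A (13 residual degrees of freedom), and Benjamini-Hochberg adjustment over all genes tested at a threshold of 0.05. Changes are fitted log2 ratios, later age over earlier age. CPM are TMM-scaled, and CPM per kb divides by the union exon length of GENCODE vM21, in which 31424 symbols were found. The floor of 3 counts covers counting error only. Same-age libraries all differed by more than counting error, with a chi-square of at least 3.85 per degree of freedom. Alternatives were DESeq2 1.42.0 and its size factors, limma-voom (limma 3.58.1), total counts, other filters, a block for the replicate number, a fit without the batch term, P5 batch B left out or summed, a single batch, and each library left out.

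All members are named; of the pathway lists, the 4 highest and 4 lowest fold changes past the threshold with at least 5 CPM in 1 of the 2 ages. Trem2 and Nrcam were named after their values were seen. The members and lists were chosen with earlier results of these data known. One gene of the oligodendrocyte list is not reported here and stays out of its sum.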

Additional observations from a re-analysis of the deposited data

How the results depend on the processing

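Of 2852 fitted values of single members under other settings, 2755 kept their direction and their side of the threshold, 48 no longer passed, 48 newly passed and 1 turned round: Sema6d at P7 against P5, 0.05 as reported, was -0.25 (adjusted p = 0.0203) without the P5 libraries of batch B. Of 5580 with a library left out, 5435 kept both, 123 no longer passed and 22 newly passed. The count of 28 members at P15 against P5 ran from 27 to 29 and that of 30 at P28 against P5 from 29 to 30 under the other settings. The 7 members at P7 against P5 became 12 with total counts, 13 without the batch term, 17 without the P5 libraries of batch B, 13 with P5 libraries of the same number summed and 4 within batch B. Leaving out or summing the P5 libraries of batch B also removed the batch term. In these fits, and in that without the term, age and batch cannot be told apart for P7 against P5, which includes the value of Sema6d. The 2 members at P15 against P10 became 1 with total counts, limma-voom or no batch term. Causes of these moves were not tested. Total counts moved the median of all genes to -0.14 at P15 and at P28 against P5, from -0.02 and -0.01.

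With libraries left out, the counts ran from 26 to 29 (P15 against P5), 29 to 30 (P28 against P5), 4 to 7 (P7 against P5), 25 to 29 (P10 against P5), 19 to 26 (P10 against P7), 0 to 6 (P15 against P10), 10 to 14 (P21 against P15) and 0 throughout (P28 against P21), 29 to 31 for any age, and 0 to 6 for batch B against A at P5, where 5 were called with all libraries (2 without P5 replicate 1 and 3 without replicate 2 of batch A, 0 without replicate 1 and 3 without replicate 3 of batch B). Same-numbered libraries did not deviate together: 13 of 57 pairs had a correlation over 0.1 (median -0.02), beside 30 of 114 other pairs (median 0.03). The numbers were thus not taken as pairs; this pooled check does not settle whether the same-numbered P5 libraries of batches A and B share a mouse. With the replicate block the counts were 28 at P15, 30 at P28 and 5 at P7 against P5.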
